A study of Mus musculus with 15 samples.

Results

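The regions described here are 1299 stretches of the mouse genome where histone H3 acetylated at lysine 27 (H3K27ac) was higher in nucleus accumbens after cocaine than after saline in every library compared. They were chosen by 4 criteria applied to the deposited H3K27ac region table: a position on chromosomes 1 to 19, a length under 3000 bp, a log2 ratio of the cocaine mean to the saline mean of at least 0.15, and a lowest cocaine value above the highest saline value. Of the 47609 regions with that position and length (49712 regions were listed in all), 1299 met the criteria, or 2.73%, and they are called gains below. The mirrored criteria found 2692 losses; after cyclic loess scaling of the libraries the same criteria gave 705 gains and 2926 losses. Because these H3K27ac values selected the gains, the H3K27ac differences between cocaine and saline are given as a description, with no test.

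The study profiled nucleus accumbens of C57BL/6 mice with 15 libraries. The cocaine group received an intraperitoneal dose of 20 mg/kg on each of 7 days, and the other group is labelled saline; the protocol text gives no separate schedule for saline and no interval between the last injection and tissue collection. H3K27ac was measured by chromatin immunoprecipitation and sequencing in 3 cocaine libraries (numbered 7, 9 and 11) and 3 saline libraries (numbered 8, 10 and 12), with 1 input library per treatment. The same numbers of libraries, 3 per treatment, were made from captured DNA that carries 5-hydroxymethylcytosine (5hmC). The labels give neither age nor sex, nor do they tie a library to an animal, so the spread between libraries may be technical. One library is labelled both as cerebellum input and as nucleus accumbens and entered no comparison.

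H3K27ac is placed on nucleosomes at active promoters and enhancers by the acetyltransferases CBP and p300, is removed by histone deacetylases, and is widely used to map regulatory DNA in use in a tissue. The nucleus accumbens is the ventral striatal part of the reward circuit; it consists mostly of medium spiny neurons, and cocaine raises synaptic dopamine there by blocking its reuptake. Repeated cocaine is known to alter histone acetylation at many genes in this region. 5hmC is made from 5-methylcytosine by the Tet dioxygenases and is abundant in the DNA of neurons, where it often lies over gene bodies and enhancers. In whole tissue, a change in the share of a cell type and a change of the mark within cells cannot be told apart.

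The values are normalised read counts per region, that is, reads divided by a factor for each library. They were whole multiples of 1 read in 100% of the values checked, within 0.1 read, and the 6 H3K27ac libraries held 29805017 to 33098465 reads in the listed regions. At the gains the median was 285 to 295 reads per region in the cocaine libraries and 225 to 259 in the saline libraries. Saline library 8 was the shallowest. No gene annotation or genome sequence of the build of the coordinates, mm9, was used here, so regions are given by position only. Neither the labelled tissue nor cell types were checked against marker genes.

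The gains were small and numerous. The median gain was 12.9% higher in the cocaine mean than in the saline mean, a log2 ratio of 0.17, and the range was 10.96% to 35.5%. Of the 1299 gains, 1010 (77.8%) had a log2 ratio between 0.15 and 0.20, 226 lay between 0.20 and 0.25, 36 between 0.25 and 0.30, and 27 at 0.30 or more. The criterion on size did most of the choosing. Cocaine values lay wholly above saline values in 5586 of the 47609 regions (11.7%), whereas a log2 ratio of at least 0.15 was reached in 1390 (2.92%). Of those 1390, 1299 also had groups that did not overlap and became the gains.

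Each gain rested on a modest separation of the groups. The median standard deviation within a group was 3.78% of the mean for cocaine and 4.35% for saline. Over all regions of that position and length it was 3.20% and 3.64%. Regions of 1000 bp with a mean level of 230 to 270 counts, nearer the gains in level, had 4.21% and 4.67%. That class was chosen after seeing the data and holds 589 of the gains. The criterion that the groups do not overlap favours a small spread. The lowest cocaine value exceeded the highest saline value by a median factor of 1.05. That factor ran from 1.00004 to 1.22, and in 79 gains the nearest cocaine and saline values were within 1% of each other. In 68 gains (5.23%) every cocaine library stood at least 0.15 log2 above every saline library. The counting error of the log2 ratio, from the reads alone, had a median of 0.0727. The ratio was more than 2 times this error in 1285 gains. The threshold of 0.15 that chose the gains largely sets this count.

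Summed over the gains, the libraries of a treatment lay close together. The 1299 gains summed to 419183 normalised counts in cocaine library 11, 419400 in cocaine library 7 and 414634 in cocaine library 9. The sums were 370907 in saline library 10, 368908 in saline library 12 and 365126 in saline library 8. The median gain stood at 283, 282 and 280 in cocaine libraries 11, 7 and 9 and at 250, 250 and 247 in saline libraries 10, 12 and 8. As a share of all normalised counts in the table the gains held 1.31% to 1.32% in cocaine and 1.12% to 1.16% in saline. These sums separate because the regions were selected to separate.

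The library at the top of its group varied among the gains. Cocaine library 7 was the highest of its group in 38.1% of gains, library 11 in 36.8% and library 9 in 25.1%. Over all regions of that position and length these shares were 31.3%, 34.5% and 34.3%. Among saline libraries, number 10 was the highest in 41.0% of gains, number 12 in 34.3% and number 8 in 24.8%. Over all those regions the shares of saline libraries 10, 12 and 8 were 28.0%, 24.5% and 47.6%. Against single libraries, the cocaine mean stood at least 0.15 log2 above saline library 8 in 76.6% of gains, above library 12 in 67.8% and above library 10 in 61.0%. Cocaine libraries 11 and 7 stood that far above the saline mean in 72.7% each, and library 9 in 61.4%. Saline library 8 thus most often lay far below the cocaine mean, a description of the values that chose the gains. Among the losses, saline library 8 was the highest of its group in 77.2% of them and cocaine library 9 in 75.3%. As given above, over all regions these shares were 47.6% for saline library 8 and 34.3% for cocaine library 9.

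The gains lay at the weak end of the listed H3K27ac regions. The median gain held 246 normalised counts per 1000 bp, averaged over the 6 libraries, against 371 for all regions under 3000 bp on these chromosomes. Of the gains, 1092 (84.1%) lay between 200 and 300 counts per 1000 bp, where 14.8% of all these regions lay. A single gain reached 500 counts per 1000 bp, a level at which 24.9% of all these regions stood. In the lowest decile of level, up to 260 counts per 1000 bp, 926 of 4761 (19.4%) were gains, and in the next decile 259 (5.44%) were. From the third decile upward the share was at most 0.840%, and in the top decile it was 0. Losses were spread more evenly, at 13.3% in the lowest decile, 7.35% in the next and 5.67% in the top decile. Losses were also few in deciles 3, 4 and 5, at 2.06%, 1.60% and 2.29%. Unlike the gains, they were more common again above these, at 4.75% in decile 6 and 8.02% in decile 7. Read depth moved with the pattern of the gains. The median region of the whole table held 473 to 534 reads per library, against 225 to 295 at the gains. These are reads per region, not adjusted for length, and the whole table includes regions of 3000 bp or longer. The part of depth was not tested.

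**Figure D1:**
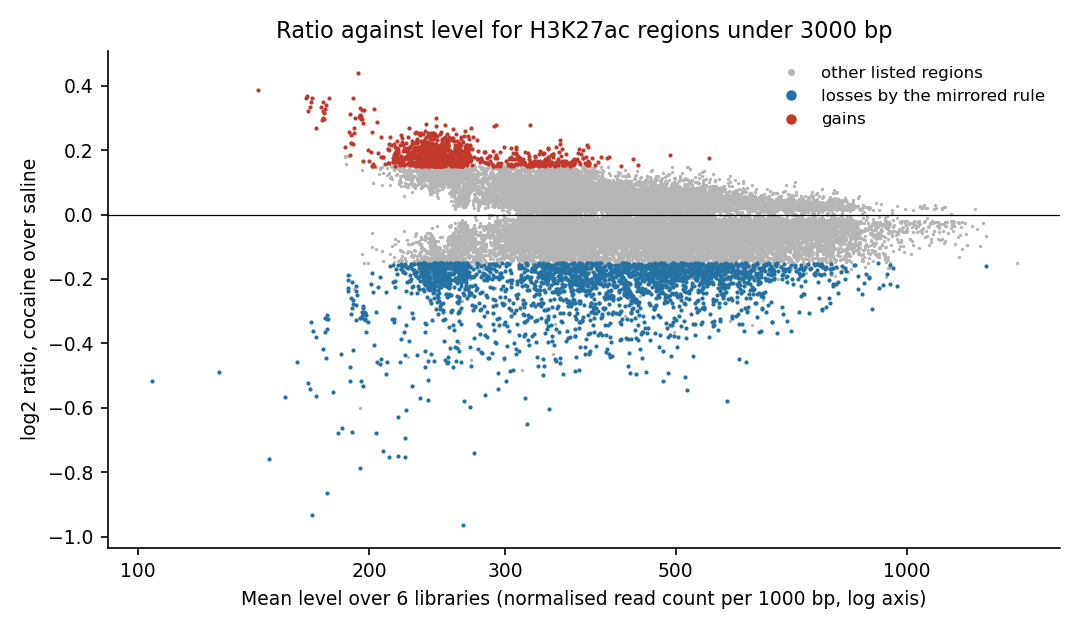
Each point is an H3K27ac region under 3000 bp on chromosomes 1 to 19, with its mean level over 6 libraries per 1000 bp on a log axis and its log2 ratio of the cocaine mean to the saline mean. The 1299 gains (red) gather mostly between 200 and 300 counts per 1000 bp, while the 2692 losses (blue) extend to far higher levels.

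The gains were also short. Regions of exactly 1000 bp, the width of 1 scanning window of the authors' caller, made up 674 gains (51.9%) and 36.5% of all regions of that position and length. A further 587 gains were longer but under 2000 bp, and 38 (2.93%) measured 2000 bp or more, a class that held 13.3% of all these regions. Among the 625 gains longer than 1000 bp, the log2 fold change of the best window in the authors' deposited table exceeded that of the whole region in 276 (44.2%), with a median difference of 0. Over most of these longer gains, then, the best window did not stand above the region as a whole.

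The listed regions did not cover all levels evenly, and the gains sat in the lowest of several bands. Of the 17387 regions of 1000 bp, 4229 had a mean level between 230 and 270 normalised counts, 175 between 270 and 330, 8830 between 330 and 390, 295 between 390 and 470, and 2915 between 470 and 580. The lowest of these bands held 589 gains (13.9%) and 425 losses (10.05%), and its median log2 ratio was 0.09. The band from 330 to 390 held 39 gains (0.442%) and 102 losses, and the band from 470 to 580 held 0 gains and 69 losses. Ratios of either direction were larger in the weaker of these 3 bands. The median log2 ratio without its sign was 0.12 from 230 to 270, 0.04 from 330 to 390 and 0.03 from 470 to 580. Below 230 there were 101 regions of 1000 bp, of which 34 were gains and 60 were losses. These band limits were set after the levels had been seen.

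**Figure D2:**
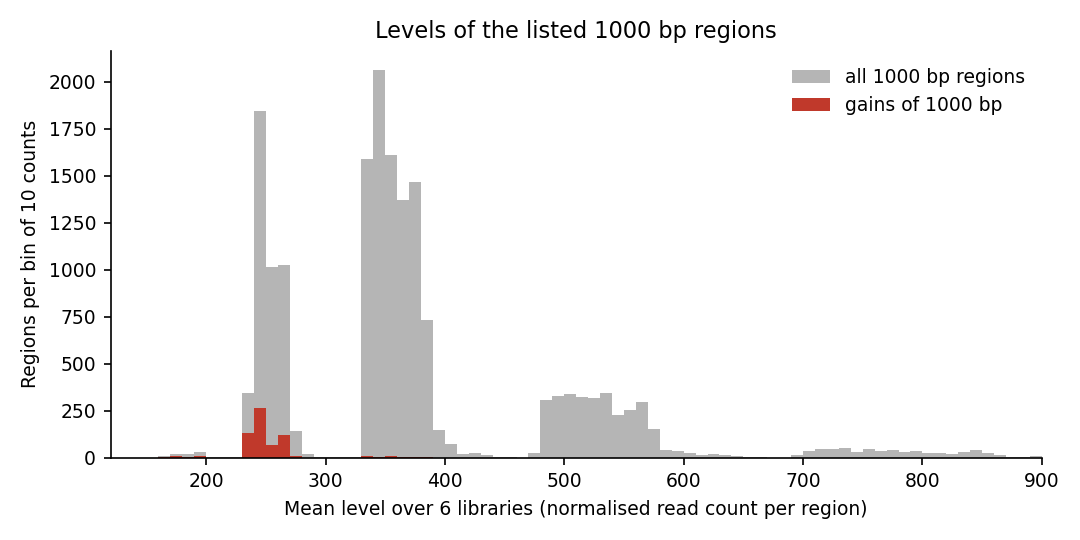
The number of listed 1000 bp regions is plotted in bins of 10 normalised counts of mean level over 6 libraries, with the gains of that length in red. The regions fall into separate bands, and 589 of the 674 gains lie in the band between 230 and 270 counts.

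The p-values in the authors' deposited table did not follow the size of the difference. Of all regions under 3000 bp on chromosomes 1 to 19, 65.6% (31243) had a deposited adjusted p below 0.05 in either direction. That group included 13343 regions, 28.0% of all, whose log2 ratio was under 0.05 in size. Among the gains, 959 (73.8%) had a deposited adjusted p below 0.05 and 225 (17.3%) had a deposited adjusted p of 1. The latter share was 31.4% over all these regions. The deposited adjusted p went with length: it was below 0.05 in 100% of the 1000 bp regions in each band of level named above. Regions of 1000 bp were 51.9% of the gains and 36.5% of all these regions. The deposited p of the best window was below 1e-08 in 98.5% of gains and in 97.7% of all these regions. The deposited p-values were therefore used neither to rank the gains nor to support them.

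The largest ratio was found at chr19:53831501-53832700, a region of 1200 bp. Its H3K27ac was 253, 259 and 288 normalised counts in cocaine libraries 11, 7 and 9 and 177, 215 and 199 in saline libraries 10, 12 and 8. The cocaine mean was 267 ± 18.9 and the saline mean 197 ± 18.8 (SD, n = 3 libraries each), 35.5% higher after cocaine, with a counting error of 0.08 on a log2 ratio of 0.44. Cocaine library 9 was the highest and saline library 10 the lowest, and the groups were 38.3 counts apart at their nearest. The input libraries stood at 100 counts for cocaine and 105 for saline.

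The next 2 gains differed in how tightly the libraries agreed. At chr3:51473301-51474600 (1300 bp) the cocaine libraries 11, 7 and 9 held 205, 226 and 200 counts and the saline libraries 10, 12 and 8 held 159, 158 and 167, a log2 ratio of 0.39. Its 3 saline values were nearly level, and its best window had a log2 fold change of 0.58 in the authors' deposited table, the largest of any gain. At chr5:117802201-117803200 (1000 bp) the values were 193, 183 and 185 after cocaine and 137, 150 and 147 after saline, a log2 ratio of 0.37. This region had the widest relative separation of all gains, its lowest cocaine value being 1.22 times its highest saline value.

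The fourth to seventh largest gains lay on chromosomes 7 and 9, and each was 1000 bp long. At chr9:60931401-60932400 the cocaine libraries 11, 7 and 9 held 187, 183 and 189 counts and the saline libraries 10, 12 and 8 held 158, 144 and 133. The cocaine values there lay much closer together than the saline values. At chr7:146023501-146024500 the values were 190, 193 and 186 after cocaine and 150, 139 and 154 after saline, and the input libraries also differed, at 111 counts for cocaine and 82.8 for saline. At chr7:53690901-53691900 they were 208, 211 and 223 against 154, 164 and 182. At chr9:104157201-104158200 they were 191, 204 and 203 against 160, 169 and 137, with input at 90.6 and 68.4 counts. In all of these regions each cocaine library exceeded each saline library, as the criteria require.

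The last 3 of the 10 had log2 ratios of 0.34 to 0.35. At chr15:36923801-36924800 the counts were 192, 190 and 183 in cocaine libraries 11, 7 and 9 and 156, 135 and 153 in saline libraries 10, 12 and 8. At chr10:22439301-22440300 they were 205, 195 and 184 against 154, 161 and 144, and here the saline input (71.4) exceeded the cocaine input (63.6). At chr10:120624701-120625700 they were 197, 204 and 189 against 162, 140 and 164, and here the cocaine input (77.0) exceeded the saline input (59.0). Of the 10 largest gains, 8 were 1000 bp long, and all 10 had a mean level under 200 counts per 1000 bp, below the level of most gains.

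**Figure D3:**
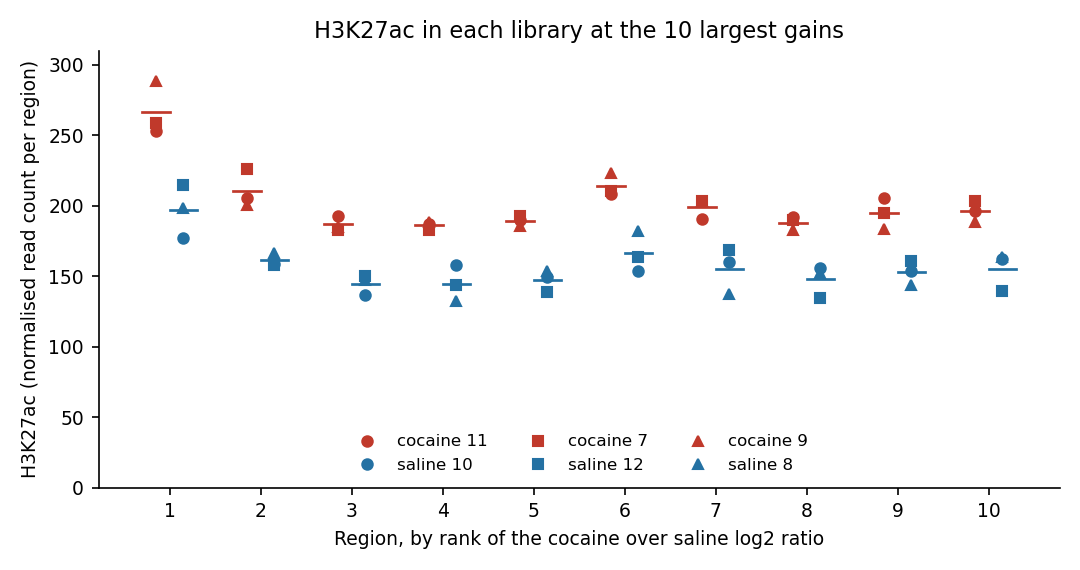
Normalised H3K27ac counts are shown for each of the 3 cocaine and 3 saline libraries at the 10 gains with the largest log2 ratio, and horizontal lines mark the group means. Every cocaine point lies above every saline point of the same region, and the difference of the means is 69.9 counts at the first region and between 40.4 and 49.4 at the other 9.

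The gains with most H3K27ac were long regions with ratios near the threshold. The highest mean was at chr5:121779901-121782700 (2800 bp), with 1030, 1031 and 1085 counts in cocaine libraries 11, 7 and 9 and 913, 991 and 923 in saline libraries 10, 12 and 8. Saline library 12 stood well above the other 2 saline libraries there, and the log2 ratio was 0.15. At chr9:36730901-36733400 (2500 bp) the cocaine values were 1050, 1017 and 991 and the saline values 911, 927 and 899, a log2 ratio of 0.16. The largest difference in counts, 109, was at chr16:7351501-7354300 (2800 bp), where cocaine held 903, 949 and 923 counts and saline 824, 794 and 831.

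Replicates were closest in the next of these long gains. At chr17:14059801-14062600 (2800 bp) the cocaine libraries held 914, 922 and 901 counts and the saline libraries 807, 806 and 818, means of 912 ± 10.6 and 810 ± 6.64 (SD, n = 3). At chr19:56544001-56546900 (2900 bp) they held 907, 864 and 870 against 797, 761 and 771, with input at 241 counts for cocaine and 200 for saline. At chr2:31481501-31484300 (2800 bp) they held 886, 914 and 896 against 822, 793 and 808. These 6 long regions thus had differences of 91.0 to 109 counts at log2 ratios of 0.15 to 0.18.

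Regions on either side of the threshold were hardly different. The last gain, chr9:99240201-99241600, had 299, 307 and 290 counts after cocaine and 284, 279 and 245 after saline. The next, chr4:102265301-102266300, had 250, 252 and 277 against 236, 226 and 239, and chr13:110911701-110912700 had 253, 241 and 243 against 228, 228 and 207. Just outside lay chr1:196539201-196540200, with 242, 238 and 258 counts against 218, 234 and 213. There too lay chr6:42693001-42694300, with 367, 339 and 339 against 330, 317 and 295, and chr3:55291501-55292500, with 250, 248 and 243 against 212, 236 and 221. In all 6 regions the log2 ratio was 0.15 when rounded, so which of them counts as a gain turns on differences far smaller than the spread between libraries.

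A small subset of gains had far larger window p-values in the authors' deposited table than the rest. In 19 gains (1.46%) the deposited p of the best window was 1e-08 or more, as in 316 of the losses. It was below 1e-08 in 98.5% of gains and in 97.7% of all regions of that position and length. Such regions were thus no more common among the gains than in the table. The criterion was chosen after the values had been seen. The 19 gains included the first and second largest and chr9:104157201-104158200. Their log2 ratios ran from 0.18 to 0.44, and all but 3 of them were among the 38 largest ratios. At chr1:58968201-58969200 the counts were 209, 232 and 209 in cocaine libraries 11, 7 and 9 and 168, 175 and 173 in saline libraries 10, 12 and 8. At chr4:119202701-119203700 they were 221, 221 and 214 against 175, 182 and 167, and at chr4:124066601-124067600 they were 317, 319 and 325 against 290, 251 and 252. The input libraries differed at the latter region, with 123.3 counts for cocaine and 96.2 for saline.

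Input DNA gave a measure that the criteria had not used. Input is sheared chromatin sequenced without antibody, and its level at each region was recovered from the enrichment over input that the authors deposited. Summed over the gains, input was 144011 counts for cocaine and 143082 for saline, a ratio of 1.006, against 1.008 over all regions of that position and length. Input was higher in the cocaine library at 681 gains (52.4%) and at 52.4% of all these regions. With 1 input library per treatment these ratios have no replicates and no test. In sum, input at the gains was as balanced between the treatments as it was elsewhere in the table.

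At single regions the input ratio went either way. The log2 ratio of cocaine to saline input at the gains ran from -0.84 to 0.64, with a median of 0.01, from 1 library per treatment. In 252 gains (19.4%) the input ratio was at least as large as the H3K27ac ratio. The deposited enrichment over input was higher for cocaine than for saline in 1039 gains (80.0%), lower in 246 (18.9%) and equal in the rest. Over all regions of that position and length it was higher for cocaine in 45.5%, and over the losses in 12.6%. Since enrichment is the H3K27ac mean divided by input, the selection on H3K27ac largely sets these shares. The median enrichment of the gains was 2.86 for cocaine and 2.53 for saline, against 3.96 and 3.98 over all these regions.

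**Figure D4:**
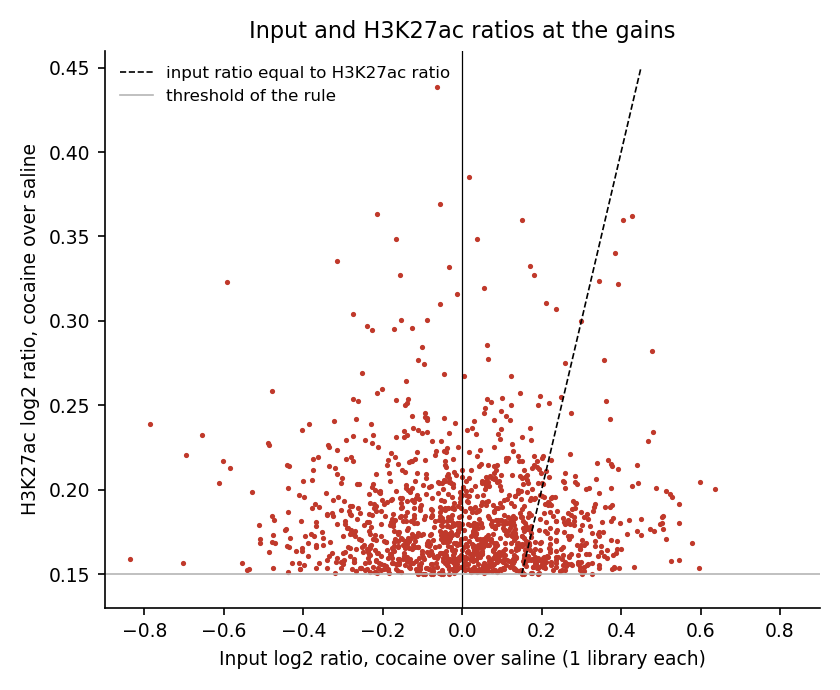
Each point is 1 of the 1299 gains, with the log2 ratio of the cocaine input library to the saline input library on the horizontal axis and the H3K27ac log2 ratio on the vertical axis. Points right of the dashed line, 252 in number, had an input ratio at least as large as the H3K27ac ratio, and points lie on both sides of 0 for input.

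5hmC was measured in other libraries and so was independent of how the gains were chosen. The deposited 5hmC table lists 11748 regions, each given as up or down after cocaine. Of the gains, 27 (2.08%, exact 95% interval 1.37% to 3.01%) shared at least 1 bp with a listed 5hmC region. The share was 2.15% (1025 regions) over all H3K27ac regions of that position and length, 1.68% over the 1000 bp regions at 230 to 270 counts, a class chosen after seeing the data that itself includes 589 gains, and 1.37% over the losses. The overlap of gains with 5hmC regions was thus near that of the table as a whole. Within 5000 bp a 5hmC region was found at 13.0% of gains and 13.6% of all these regions. These intervals cover counting error only.

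Listed 5hmC regions of both directions lay at the gains. At 14 of the 27 gains (1.08% of all gains) 5hmC was higher after cocaine, and at 13 (1.001%) it was lower. Over all H3K27ac regions of that position and length, 615 (1.29%) touched a 5hmC region higher after cocaine and 413 (0.867%) one that was lower, and both values lie inside the exact 95% intervals of the gains (0.590% to 1.80% and 0.534% to 1.71%). At each of the 27 the cocaine and saline values did not overlap, as in 99.9% of all listed 5hmC regions (11739 of 11748). Summed over the 27 regions, 5hmC was 170, 186 and 166 normalised counts in the 3 cocaine libraries and 186, 180 and 178 in the 3 saline libraries. The means were 174 ± 10.7 and 181 ± 4.05 (SD, n = 3), with p = 0.4 in an exact two-sided permutation test that cannot go below 0.1 here. This sum adds regions listed as higher to regions listed as lower in the same libraries, so the test does not bear on whether 5hmC differed at the gains. Over the 14 regions with more 5hmC the mean sum was 131 ± 8.25 after cocaine and 36.0 ± 4.48 after saline, and over the 13 with less it was 43.5 ± 3.29 and 145 ± 4.63, a division made on these same values.

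The depth of 5hmC at these places was low. The 27 regions held 151 to 207 reads per library in all, with a median of 5 to 7 reads per region and a range of 0 to 21. The 5hmC regions were 200 to 340 bp long, a small part of the H3K27ac region they touched. All adjusted p-values for them in the authors' deposited table lay between 0.135 and 0.141.

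At some gains 5hmC was lower after cocaine while H3K27ac was higher. At chr7:143371701-143372800, H3K27ac was 309, 301 and 306 counts in cocaine libraries 11, 7 and 9 and 282, 250 and 256 in saline libraries 10, 12 and 8. The 5hmC region inside it, chr7:143372361-143372580, held 1.92, 0.00 and 0.90 normalised counts in the cocaine libraries and 8.07, 6.18 and 9.87 in the saline libraries. Its log2 fold change in the authors' deposited table was -3.10. The same held at chr11:75719201-75720200, where H3K27ac was 252, 244 and 274 against 229, 228 and 233. There 5hmC was 0.96, 1.23 and 1.80 after cocaine and 5.38, 6.18 and 8.88 after saline.

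At other gains the 2 marks were both higher after cocaine. At chr1:196457201-196458200, H3K27ac was 299, 273 and 268 in cocaine libraries 11, 7 and 9 and 259, 250 and 237 in saline libraries 10, 12 and 8, while 5hmC was 4.80, 6.17 and 5.39 against 0.90, 1.03 and 0.00. At chr13:45840501-45841500, H3K27ac was 270, 298 and 273 against 240, 234 and 244, while 5hmC was 4.80, 4.94 and 4.49 against 1.79, 0.00 and 0.00. Both saline zeros there are counts of no read. At chr11:79679701-79681000, H3K27ac was 373, 348 and 354 against 339, 306 and 295, and the 5hmC region overlapped the edge of the gain by 100 bp, with 6.73, 6.17 and 5.39 against 0.90, 2.06 and 0.00. At chr12:110840401-110841700, H3K27ac was 313, 314 and 309 against 268, 287 and 261, while 5hmC was 4.80, 8.64 and 6.29 against 1.79, 1.03 and 0.99. The order of the 5hmC values is that of the deposited table, which does not name the libraries.

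**Figure D5:**
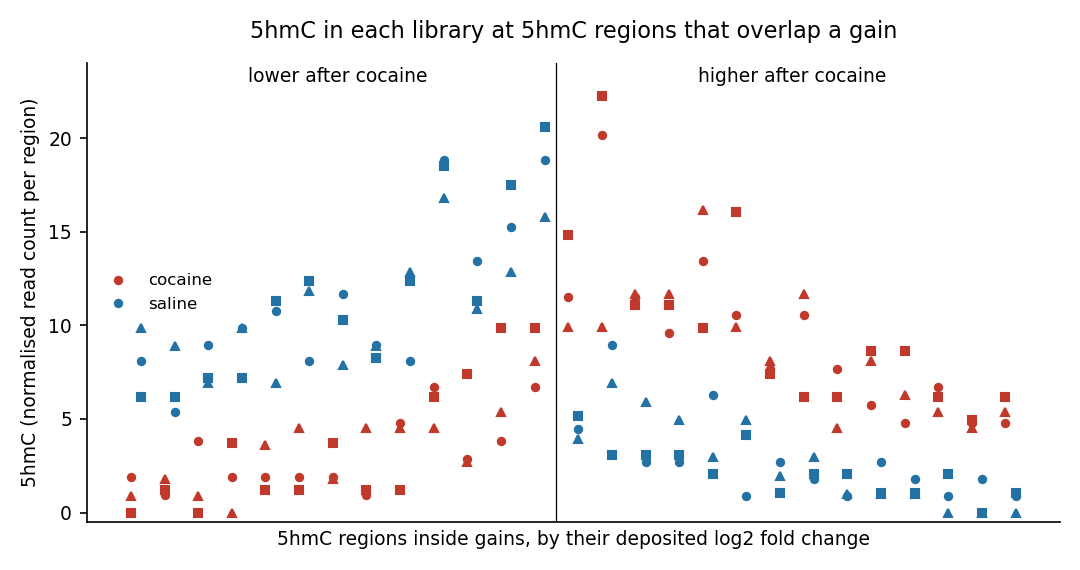
Normalised 5hmC counts of the 3 cocaine and 3 saline libraries are shown at the 27 listed 5hmC regions that overlap a gain, in order of their deposited log2 fold change, with marker shape giving the position of the library in the deposited table. The 13 regions on the left were lower and the 14 on the right higher after cocaine, and most values are under 15 counts.

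The authors also deposited lists of 5hmC enhancer intervals named as specific to cocaine or to saline, for which the sources used here give no method. Cocaine-specific intervals touched 8 gains (0.616%, exact 95% interval 0.266% to 1.21%), against 0.407% of all H3K27ac regions of that position and length. Saline-specific intervals touched 6 gains (0.462%, 0.170% to 1.003%), against 0.239%. The 1000 bp regions at 230 to 270 counts gave 0.591% for cocaine-specific and 0.544% for saline-specific intervals. Both intervals for the gains include the shares of those regions of like level, so no difference from them was detectable with so few gains. That class was chosen after seeing the data and itself includes 589 gains, so its shares are not independent of those of the gains.

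Among the 8 gains at cocaine-specific intervals, chr7:146023501-146024500, described above, had the largest ratio. The next was chr6:145324101-145325100, with 276, 261 and 264 counts in cocaine libraries 11, 7 and 9 and 248, 217 and 234 in saline libraries 10, 12 and 8. It was followed by chr12:83823601-83824700, with 244, 271 and 264 against 233, 221 and 225. At chr9:85609301-85610300, chr18:40465001-40466000 and chr15:80999101-81000100 the log2 ratios were 0.19, 0.19 and 0.16. Apart from the first, these gains were ordinary in size.

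The 6 gains at saline-specific intervals had log2 ratios of 0.16 to 0.20. The largest was chr11:75101301-75102300, with 268, 238 and 249 counts in cocaine libraries 11, 7 and 9 and 216, 212 and 232 in saline libraries 10, 12 and 8. At chr11:46085801-46086800 the values were 279, 256 and 285 against 229, 249 and 244, and at chr9:121924101-121925100 they were 261, 231 and 251 against 224, 223 and 210. The other 3 were chr11:83597101-83598300, chr1:163508101-163509200 and chr10:61610401-61611400. In all 6 the cocaine input exceeded the saline input, by a log2 ratio of 0.15 to 0.35, from 1 input library per treatment. The part of input in their H3K27ac difference was not tested. Cocaine input was the higher at 52.4% of all H3K27ac regions of that position and length. At the 6 gains named above for cocaine-specific intervals, the input log2 ratio ran from -0.27 to 0.43.

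Most gains had no other gain within 10 kb. Another gain lay within that distance of 84 gains (6.47%), and a loss of 50 gains (3.85%). Among the losses, 7.24% had another loss within 10 kb. These shares depend on the numbers of gains (1299) and losses (2692), so they do not show whether either group clusters. Some other listed region of any kind overlapped or lay within 1 kb of 349 gains (26.9%). The share was 55.2% over all regions under 3000 bp on these chromosomes. That share was 26.8% for the 1000 bp regions at 230 to 270 counts and 25.5% for the losses. Regions of 3000 bp or longer, the broadest in the table, lay within 10 kb of 7.93% of gains and of 12.2% of all these regions.

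Listed regions beside or overlapping a gain were described where they were not gains themselves. For 316 gains a listed region that was not a gain overlapped the gain or lay within 1 kb. Of the nearest such neighbours, 171 (54.1%) were higher after cocaine, with a median log2 ratio of 0.03. Neighbours that overlap a gain share reads with it, and how many did so was not counted. Over all regions of that position and length 47.5% were higher and the median was -0.02. Neighbours of the 1000 bp regions at 230 to 270 counts were higher in 46.4%, with a median of -0.02. Since neighbours that were gains themselves were passed over, this share and median leave out the largest ratios.

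With a gap of at most 10 kb, the gains formed 39 pairs and 2 groups of 3. The first group spanned 7700 bp at chr9:119703901-119711600 and differed in level from region to region. Its middle region, the strongest, chr9:119706101-119707600, had 629, 619 and 583 counts in cocaine libraries 11, 7 and 9 and 569, 519 and 543 in saline libraries 10, 12 and 8. The region before it, chr9:119703901-119705200, had 337, 325 and 305 against 285, 299 and 280. The region after it, chr9:119710101-119711600, had 524, 501 and 530 against 473, 459 and 467. The last of these also held a 5hmC region that was higher after cocaine, with 20.2, 22.2 and 9.89 counts against 8.96, 3.09 and 6.91.

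The second group spanned 9000 bp at chr2:6935701-6944700. Its first region, chr2:6935701-6936800, had 283, 269 and 297 counts in cocaine libraries 11, 7 and 9 and 245, 239 and 226 in saline libraries 10, 12 and 8, a log2 ratio of 0.26. There the cocaine input (78.2) was below the saline input (109). The second, chr2:6941601-6942800, had 330, 318 and 314 against 284, 307 and 269, and the third, chr2:6943301-6944700, had 309, 333 and 317 against 267, 291 and 289. Log2 ratios ran from 0.15 to 0.17 in the first group and from 0.16 to 0.26 in the second. Both groups were formed from gains alone, and other listed regions within these spans were not counted.

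The gains were spread over all 19 autosomes. Their share of the regions on a chromosome ran from 1.80% on chromosome 8 (48 of 2672, exact 95% interval 1.33% to 2.38%) to 3.84% on chromosome 14 (66 of 1717, 2.99% to 4.86%). The median log2 ratio of the gains was 0.17 to 0.18 on every chromosome. The intervals of all chromosomes but 8 and 14 include the overall share of 2.73%, out of 19 intervals looked at.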

How the data were processed

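H3K27ac, input and 5hmC were profiled in mouse nucleus accumbens. The submitters' processing notes name Bowtie 0.12.9 and the build mm9. Per the file headers, diffReps 1.54 produced the H3K27ac table: it slid a 1000 bp window in steps of 100 bp, applied a negative binomial test, kept windows with p up to 0.0001 and used the 2 input libraries as background. Only regions that passed are listed. The authors deposited a normalised signal (counts divided by a library factor) per library, group means, enrichment over input as a ratio, a log2 fold change, and p-values and adjusted p-values. The deposited 5hmC table has no header; how its regions were called is not given here, and it does not name the libraries behind its 3 values per group.

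Log2 ratios were recomputed from the 6 deposited values with Python 3.11.15, pandas 2.3.3, numpy 2.4.6 and scipy 1.17.1; input was the group mean divided by the deposited enrichment. Cyclic loess, an alternative scaling, used limma 3.58.1 in R 4.3.3. No count test was run, because the criteria use the same contrast. Intervals are exact binomial. Named regions were the 10 largest ratios, the 5 largest differences, the 5 highest means, the 3 widest separations, those nearest the threshold, the 6 with the largest deposited 5hmC change, up to 6 per enhancer list and the 2 largest groups of neighbours. Gene lists, markers and sequence features were not used here, as no annotation or genome of that build was at hand. The members and lists were chosen with earlier results of these data known. All per-library columns were mapped (0 unused).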

Additional observations from a re-analysis of the deposited data

How the results depend on the processing

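The number of gains followed the threshold and the scaling. It was 3308 at a log2 threshold of 0.10, 289 at 0.20 and 63 at 0.25, against 1299 at 0.15. Cyclic loess scaling left 705, of which 642 were among the 1299; all 1299 still had a higher cocaine mean, by a log2 ratio of at least 0.11, and 675 reached 0.15. That scaling moved the median log2 ratio of all listed regions from -0.02 to 0.00257, and losses numbered 2926. With 2 criteria added after seeing the data, 19 gains had a deposited window p of at least 1e-08, and 683 had an enrichment over input that was also at least 0.15 log2 higher. Median-ratio scaling gave 1617 gains (1294 of the 1299) and 2348 losses. Length limits, chromosome X, a minimum level, pseudocounts and allowing overlap gave 1146 to 1390. Leaving out 1 library gave 1409 to 1785 gains (the cause was not tested); 949 (without saline library 8) to 1124 (without cocaine library 9) of the 1299 were among them.

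A 5hmC region lay within 1000 bp of 4.46% of gains and within 5000 bp of 13.0%; a saline-specific interval lay within 1000 bp of 1.15%. Another gain lay within 5 kb of 4.77% and within 50 kb of 20.0%. The difference of the summed 5hmC ran from -13.0 to -2.91 with 1 library left out (added after seeing the data), against -6.90 with all. The exact permutation p ran from 0.2 to 0.8, and 0.2 is the lowest it can reach with 1 library left out. As said above, this test does not bear on whether 5hmC differed at the gains. The remaining alternatives (5hmC regions lying mostly inside a gain, cocaine-specific intervals within 1000 bp, and input at gains above the median level) gave 1.92%, 1.001% and a ratio of 1.007, close to the reported values. Over all regions under 3000 bp on chromosomes 1 to 19, a cocaine-specific interval lay within 1000 bp of 0.884%. No paired analysis was run, because the labels name no pairs and the cocaine and saline H3K27ac libraries share no replicate number. Their titles also carry letters, D to F for cocaine and A to C for saline. The labels do not say what these letters mean, and they cannot be told apart from treatment. Depth limits single regions: the ratio was under 3 times its counting error in 1004 gains (77.3%).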
